A study of Homo sapiens with 6 samples.

Results

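The genes of the IL-6 and oncostatin family were followed in A431 cells with and without desmoglein 2 (Dsg2), a desmosomal cadherin that joins neighbouring keratinocytes. The set holds 10 of the 21462 genes in the count table, matched by symbol. These are the ligands IL6, IL11, LIF and CLCF1, the receptors IL6R, LIFR, OSMR and IL31RA, the shared receptor IL6ST and the transcription factor STAT3. The set was chosen by IL31RA, which had reads almost only in the knockout cells, so the counts of IL31RA are given as a description with no test. The other 9 genes were taken because they belong to the same family.

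RNA-seq compared control A431 cells (A431CT, genotype WT) with A431 cells in which DSG2 had been knocked out with CRISPR/Cas9 (Dsg2KO), with 3 biological replicates per group. A431 is a human keratinocyte line from an epidermoid carcinoma. Both groups were cultured in DMEM with fetal bovine serum and polyA RNA was sequenced, with no other treatment given in the labels. All 3 Dsg2KO libraries come from edited A431 cells, and whether these are 1 clone or a pool is not given in the sources used here.

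Cytokines of this family signal through a receptor complex that contains the shared chain gp130, which IL6ST encodes, paired with a chain that recognises the ligand. Ligand binding activates Janus kinases (JAKs), which phosphorylate STAT proteins, mainly STAT3, and STAT3 then induces its own inhibitor SOCS3. IL31RA is the exception in the family, since it pairs with OSMR and not with gp130, and its ligand IL-31 is made mostly by T cells and is known for itch and inflamed skin. In keratinocytes OSMR with gp130 binds oncostatin M, and this signal is known to promote migration and to lower differentiation genes.

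The libraries held between 12845719 and 16255692 counts, at which a floor of 3 counts equals 0.184 to 0.236 CPM (edgeR's library-scaled counts with TMM factors, counting error only). DSG2 fell from 323 ± 6.08 CPM (SD, n = 3) in A431CT to 51.9 ± 2.88 CPM (SD, n = 3) in Dsg2KO cells, which left 16.1% of the control level. Of 8 keratinocyte markers, 7 were above the floor in every library, and KRT14 was not, with 0 to 2 counts. KRT6A, a keratin of stressed epidermis, was lower past both thresholds (log2 fold change -1.03, edgeR adjusted p = 0.000562). By the adjusted p-value alone SFN (-0.46) and KRT5 (-0.13) were lower and CDH1 (0.28) was higher, and the summed level of the 8 genes was 1997 to 2080 CPM in A431CT and 1811 to 1880 CPM in Dsg2KO cells. Markers of fibroblasts, T cells and mast cells were at or near the floor. The exception was CD247, which set the T cell sum of 0.551 to 1.16 CPM in A431CT and 1.14 to 1.86 CPM in Dsg2KO cells, while CD3D, CD3E and CD2 were at 0. CSF1R made up most of the myeloid sum of 540 to 571 CPM in A431CT and 496 to 515 CPM in Dsg2KO cells. The sum of 4 endothelial markers was 8.45 to 11.3 CPM in A431CT and 15.2 to 15.7 CPM in Dsg2KO cells, with CDH5 and PECAM1 past both thresholds as higher (in 12 and in 6 of 12 alternatives). KDR was at or under the floor. The part of these markers in the results was not tested.

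The difference between A431CT and Dsg2KO was tested for 12857 genes with edgeR's quasi-likelihood test and Benjamini-Hochberg adjustment over all of them. IL6 and IL11 had too few reads to be tested. Among the 7 tested members other than IL31RA, 0 passed both thresholds, against 6.03% of all genes. The thresholds were an adjusted p-value under 0.05 and a change of 0.5 or more on the log2 scale in either direction. By the adjusted p-value alone 3 of the 7 changed, against 29.6% of all genes. LIF and LIFR were higher in Dsg2KO cells (14.3% of all genes were) and IL6R was lower (15.3% of all genes were). The libraries of the groups did not overlap for 5 of the 7, against 42.6% of all genes. The median log2 fold change of the 7 genes was 0.11, and that of all genes tested was -0.0048.

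**Figure D1:**
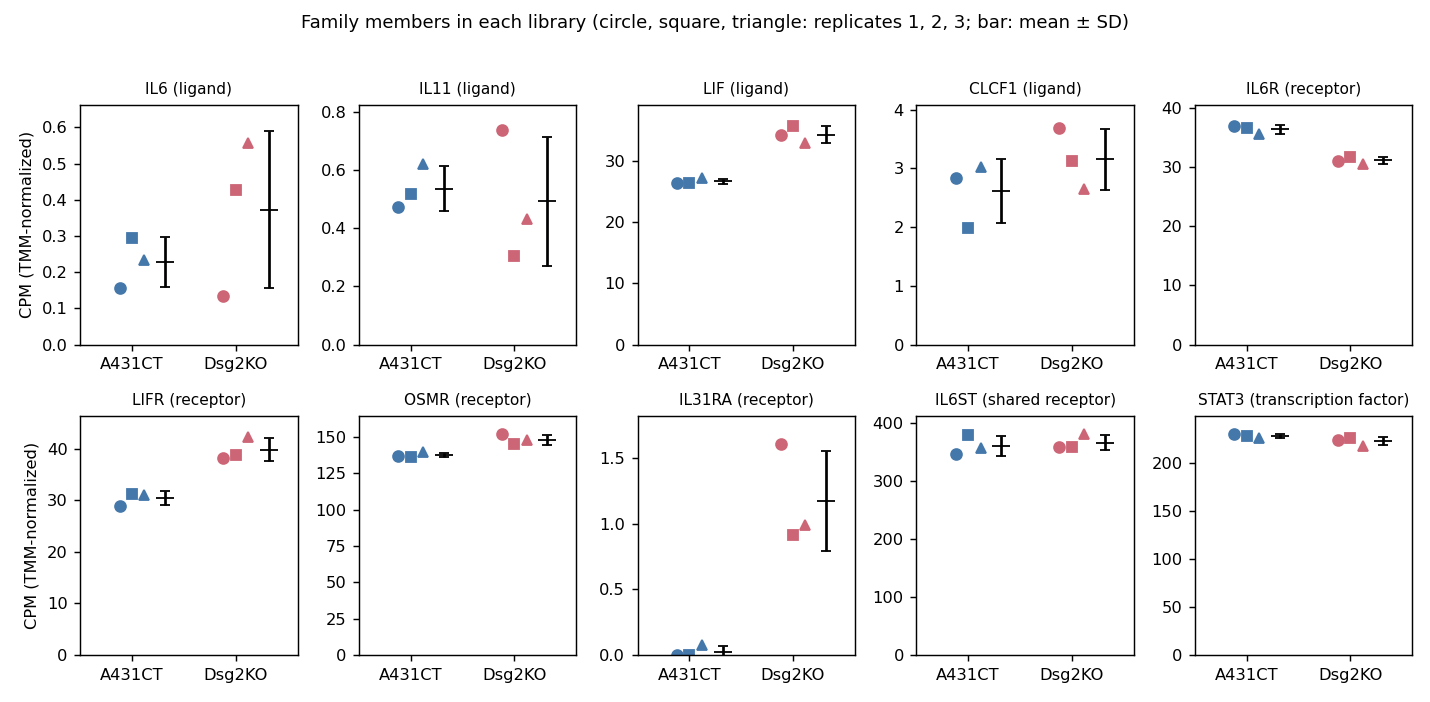
Each panel plots 1 family member in CPM (linear axis from 0) for the 3 A431CT libraries (blue) and the 3 Dsg2KO libraries (red), with circles, squares and triangles for replicates 1, 2 and 3 and a bar for the mean ± SD. IL31RA lies between 0 and 0.0775 CPM in A431CT and between 0.918 and 1.61 CPM in Dsg2KO cells, while LIF and LIFR are higher, IL6R is lower, and IL6ST overlaps between the groups.

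IL31RA, the IL-31 receptor chain (ENSG00000164509.16), lies on the plus strand at chr5:55851357-55922854 of GRCh38. Its raw counts were 0, 0 and 1 in A431CT replicates 1, 2 and 3. In Dsg2KO replicates 1, 2 and 3 they were 24, 15 and 16. Every Dsg2KO library was thus above every A431CT library, and the highest value came from Dsg2KO replicate 1. The mean level was 0.0258 ± 0.0448 CPM (SD, n = 3) in A431CT and 1.17 ± 0.381 CPM (SD, n = 3) in Dsg2KO cells. Scaled for depth, the summed counts of 1 and 55 gave a ratio of 45.4. No interval is given for it, because the set was chosen by these counts. The size of the ratio rests on the single read of A431CT replicate 3. Without that library all remaining A431CT counts are 0. The mean level in Dsg2KO cells was then 5.13 times the mean CPM of 3 counts in A431CT replicates 1 and 2. This value is a description and not a bound, and the lowest Dsg2KO library was at 0.918 CPM. In bulk RNA, more cells with the transcript and more transcript per cell cannot be told apart.

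The partners of IL31RA did not share its pattern. Its ligand gene IL31 had 0 counts in all 6 libraries, as did OSM, which encodes oncostatin M. OSMR, which forms the IL-31 receptor with IL31RA and the oncostatin M receptor with gp130, was already present in A431CT cells. OSMR (ENSG00000145623.13, chr5:38845858-38945596, plus strand) was at 137, 137 and 140 CPM in A431CT and at 152, 145 and 148 CPM in Dsg2KO replicates 1, 2 and 3. All Dsg2KO libraries lay above all A431CT libraries, but the gap was small. The log2 fold change was 0.11 (SE, the standard error, 0.04, 95% interval 0.02 to 0.19, edgeR adjusted p = 0.0565), higher in 3 of 3 Dsg2KO libraries and not past the threshold. With total counts in place of TMM the adjusted p was 0.0235, and with at least 10 counts in every library it was 0.0467 (range 0.0235 to 0.19 over the alternatives, edgeR and DESeq2). Exons of OSMR overlap those of RICTOR on the opposite strand, and RICTOR rose from 22.4 to 30.1 CPM (log2 fold change 0.42, edgeR adjusted p = 0.00247). Whether counting used strand is not given in the sources used here, so reads of the overlap cannot be told apart.

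Set against the length of their exons, IL31RA transcripts were scarce beside those of OSMR. The level of IL31RA per length was 0.494% of that of OSMR on average in Dsg2KO cells, with 0.666%, 0.397% and 0.419% in replicates 1, 2 and 3. In A431CT cells the only value above 0 was 0.0349%, in replicate 3.

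LIFR, the receptor chain that joins gp130 to bind LIF, was higher in Dsg2KO cells. LIFR (ENSG00000113594.10) lies on the minus strand at chr5:38474668-38608354. It was at 28.9, 31.3 and 31.0 CPM in A431CT and at 38.2, 38.8 and 42.3 CPM in Dsg2KO replicates 1, 2 and 3. The groups did not overlap, and the lowest Dsg2KO library was well above the highest A431CT library. The log2 fold change was 0.39 (SE 0.07, 95% interval 0.24 to 0.53, edgeR adjusted p = 0.000621), higher in 3 of 3 Dsg2KO libraries, with an adjusted p of 3.62e-05 to 0.00511 over the alternatives. The antisense gene LIFR-AS1 shares exon sequence with LIFR and is not a gene of the count table.

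Among the promoters, LIFR was the member that held a STAT motif. RefSeq promoter sequences (GRCh38.p14, the 250 bases before each start) were found for 7 members in 9 windows, and IL31RA, LIF and CLCF1 have no entry. The letters TTCNNNGAA, a sequence that STAT proteins bind and that reads the same on both strands, occurred in 2 of the 3 LIFR windows and in no window of the other members, against 6.57% of 35116 promoters. The NF-κB consensus, searched on both strands, occurred in the windows of IL6 and IL6ST, against 9.96% of all promoters. A motif match is a description of these letters and not a binding site. The RefSeq starts used for the windows differ from the gene positions given here. At those positions the LIFR and IL6 matches lie inside their genes, and the IL6ST stretch overlaps its gene. IL6R, which was lower in Dsg2KO cells, had no match of either motif, and LIF, which was higher, has no entry. The part of these motifs in the changes was not tested. All matches are shown 5′ to 3′ on the strand of the gene, with the motif in capitals:
LIFR, STAT motif starting 165 bases before the start, chr5:38595551-38595580, minus strand: ccattactagTTCCTTGAAccacaatccaa
LIFR, STAT motif starting 182 bases before another start, chr5:38557630-38557659, minus strand: gctttggagtTTCATCGAAaggtctttaaa
IL6ST, NF-κB motif starting 53 bases before the start, chr5:55994997-55995026, minus strand: gcgggattggGGAGCGCCCCgccccgccgc
IL6, NF-κB motif starting 73 bases before the start, chr7:22727117-22727146, plus strand: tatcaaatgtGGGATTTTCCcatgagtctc

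LIF, the ligand of LIFR and the most abundant ligand of the set, was also higher. LIF (ENSG00000128342.5) lies on the minus strand at chr22:30240453-30246759. It was at 26.4, 26.4 and 27.1 CPM in A431CT and at 34.1, 35.7 and 32.9 CPM in Dsg2KO replicates 1, 2 and 3. The A431CT libraries were close together and all lay below the Dsg2KO libraries. The log2 fold change was 0.36 (SE 0.07, 95% interval 0.22 to 0.51, edgeR adjusted p = 0.00101), higher in 3 of 3 Dsg2KO libraries, with an adjusted p of 0.000209 to 0.00675 over the alternatives. The ligand LIF rose 1.28-fold and its receptor chain LIFR 1.31-fold. LIF lies next to OSM, with 16.1 kb between them and no gene of the table in the gap, and OSM stayed at 0 counts. The antisense genes LIF-AS1 and LIF-AS2 share exon sequence with LIF and are not genes of the count table.

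The other ligands were low. CLCF1, a cytokine of the CNTF branch (ENSG00000175505.11, chr11:67364168-67374177, minus strand), was at 2.83, 1.99 and 3.02 CPM in A431CT and at 3.69, 3.12 and 2.66 CPM in Dsg2KO replicates 1, 2 and 3. The groups overlapped, and the log2 fold change was 0.27 (SE 0.25, 95% interval -0.27 to 0.81, edgeR adjusted p = 0.469). The interval still includes a change as large as that of LIF.

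IL6, the founding cytokine of the family (ENSG00000136244.12, chr7:22725884-22732002, plus strand), had 2, 4 and 3 counts in A431CT and 2, 7 and 9 counts in Dsg2KO replicates 1, 2 and 3. The ratio of the summed counts, scaled for depth, was 1.65 with an exact 95% counting interval of 0.705 to 4.18, which covers counting error only. IL11, which signals through its own receptor chain and gp130 (ENSG00000095752.7, chr19:55364382-55370463, minus strand), had 6, 7 and 8 counts in A431CT and 11, 5 and 7 counts in Dsg2KO replicates. Its ratio was 0.905 with a counting interval of 0.479 to 1.72. The groups overlapped for both genes, and a difference was not detectable at this depth. Exons of IL6 overlap those of STEAP1B on the opposite strand, which was at 5930 CPM in A431CT and 4856 CPM in Dsg2KO cells, so the few IL6 reads are uncertain.

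IL6R, the chain that recognises IL-6, moved against LIFR. IL6R (ENSG00000160712.13) lies on the plus strand at chr1:154405193-154469450. It was at 37.0, 36.6 and 35.5 CPM in A431CT and at 31.1, 31.8 and 30.5 CPM in Dsg2KO replicates 1, 2 and 3. The groups did not overlap, with every Dsg2KO library below every A431CT library. The log2 fold change was -0.22 (SE 0.06, 95% interval -0.36 to -0.09, edgeR adjusted p = 0.0146), lower in 3 of 3 Dsg2KO libraries. The change did not pass the threshold with DESeq2 (adjusted p = 0.0567) or without A431CT replicate 1 (edgeR adjusted p = 0.0511), and the alternatives spanned 0.0153 to 0.0567.

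IL6ST and STAT3, which all gp130 cytokines use, were abundant and showed small differences. IL6ST (ENSG00000134352.21, chr5:55935095-55995022, minus strand) was at 346, 379 and 357 CPM in A431CT and at 359, 359 and 381 CPM in Dsg2KO replicates 1, 2 and 3. The groups overlapped, with a log2 fold change of 0.02 (SE 0.04, 95% interval -0.07 to 0.11, edgeR adjusted p = 0.758). STAT3 (ENSG00000168610.16, chr17:42313324-42388540, minus strand) was at 230, 229 and 226 CPM in A431CT and at 224, 226 and 218 CPM in Dsg2KO replicates. Its log2 fold change was -0.04 (SE 0.04, 95% interval -0.11 to 0.04, edgeR adjusted p = 0.503), although all 3 Dsg2KO libraries lay just below the A431CT libraries.

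Levels of different genes were compared per kilobase of exon on a scale like TPM, with exon lengths from GENCODE 44. The exons of all transcripts of a gene were merged, so the order depends on these lengths (4321 bases for IL6, 11428 for IL31RA). In A431CT cells IL6ST was highest at 130, followed by STAT3 at 88.5, OSMR at 83.4, LIF at 29.9, IL6R at 22.6, LIFR at 10.9 and CLCF1 at 6.18. IL11 at 0.869, IL6 at 0.230 and IL31RA at 0.00985 came last, and each gene of the order was above the next in every library. The places of IL6 and IL31RA rest on few reads, 2 to 4 and 0 to 1 counts per A431CT library. In Dsg2KO cells IL6ST remained highest at 136, and OSMR at 92.7 was above STAT3 at 89.0. Their libraries were barely separated, with the lowest OSMR value at 89.86 and the highest STAT3 value at 89.79. This order also depends on the exon lengths and on the reads that OSMR may share with RICTOR. LIF was at 39.6, IL6R at 19.9, LIFR at 14.7 and CLCF1 at 7.70. IL11 at 0.824, IL31RA at 0.460 and IL6 at 0.387 were not separated from each other by their libraries. The gap between IL6R and LIFR was narrower in Dsg2KO cells. Relative to IL6ST, the level of LIFR per length was 8.36% ± 0.235 (SD, n = 3) in A431CT and 10.8% ± 0.233 (SD, n = 3) in Dsg2KO cells, and that of IL6R was 17.4% ± 0.913 and 14.7% ± 0.754 (SD, n = 3).

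**Figure D2:**
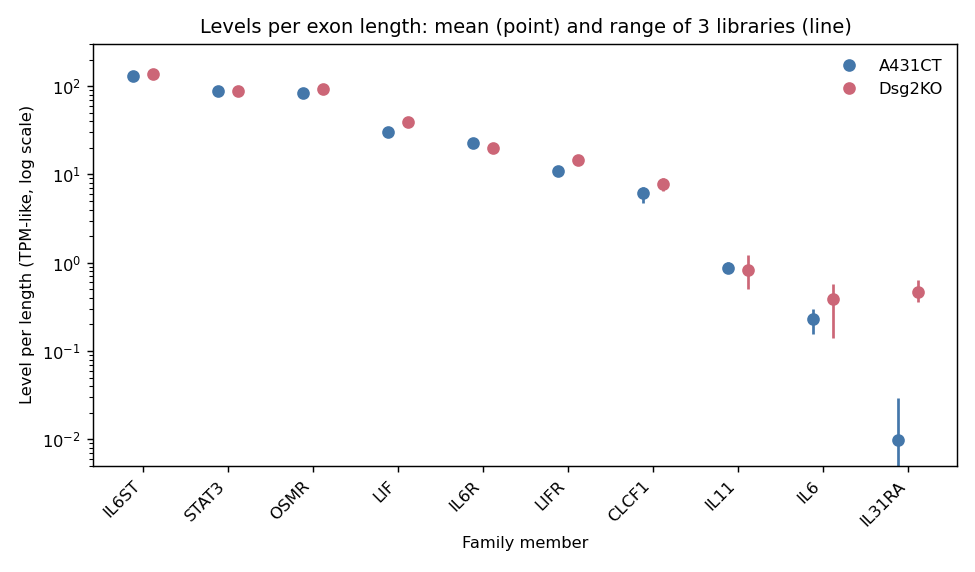
Levels per exon length (TPM-like, log axis) of the 10 members in A431CT (blue) and Dsg2KO (red) cells, with points for the mean of 3 libraries and lines for their range. The A431CT line of IL31RA runs off the bottom of the axis because 2 of its libraries are at 0, and in Dsg2KO cells IL31RA reaches the level of IL6 and IL11, far below OSMR and IL6ST.

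The rest of the gp130 pathway was read from lists of ligands, receptors, JAKs and STATs, adaptors and shedding proteases, inhibitors, and STAT3 target genes. Without the members these lists hold 54 genes, of which 43 were tested. Their median log2 fold change was 0.04. Of the 43, 3 were higher past both thresholds, against 2.99% of all genes, and 0 were lower. By edgeR's adjusted p-value alone 7 (16.3%) were higher and 6 (14%) were lower, which is near the 14.3% and 15.3% of all genes.

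The 3 genes past both thresholds were SOCS3, JAK2 and BCL6. SOCS3, the feedback inhibitor that binds gp130 and is a member of the inhibitor and the target list, was at 157, 167 and 147 counts in A431CT and at 334, 324 and 286 counts in Dsg2KO replicates 1, 2 and 3. All Dsg2KO libraries lay far above all A431CT libraries, with a log2 fold change of 0.73 (SE 0.11, edgeR adjusted p = 0.000133), and SOCS3 passed both thresholds under all 12 alternatives. JAK2, one of the kinases that gp130 uses, had 84, 117 and 98 counts in A431CT and 150, 177 and 196 counts in Dsg2KO replicates. Its log2 fold change was 0.53 (SE 0.14, edgeR adjusted p = 0.0103). It did not pass without A431CT replicate 1 (0.44, adjusted p = 0.0513) or without Dsg2KO replicate 3 (0.46, adjusted p = 0.0502), and its adjusted p-values spanned 0.0039 to 0.0513 over the alternatives. BCL6, a transcriptional repressor, had 251, 230 and 188 counts in A431CT and 360, 410 and 383 counts in Dsg2KO replicates. Its log2 fold change was 0.51 (SE 0.10, edgeR adjusted p = 0.00137), and it was at 0.41 without A431CT replicate 3 and at 0.49 without Dsg2KO replicate 2, under the fold change threshold.

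The calls by the adjusted p-value alone are given by role as a description, since each group holds few genes. Of 2 further receptors tested, IL27RA, the IL-27 receptor chain that pairs with gp130, was higher by 0.19 on the log2 scale (edgeR adjusted p = 0.0138). The further ligands CTF1 and CNTF did not pass the test. Among the JAKs and STATs, JAK2 was higher and STAT5B was lower (-0.15), while JAK1 and TYK2 did not pass the test. All 8 adaptors and proteases were tested, and 0 were higher, against 14.3% of all genes. Of the 8, 4 (50%) were lower, against 15.3% of all genes. The 4 were GRB2 and SHC1, adaptors that lead to Ras, PTPN11, the phosphatase SHP2, and ADAM17, the protease that sheds IL6R. Their log2 fold changes were -0.12, -0.15, -0.15 and -0.20. These changes were small, and STAT5B, GRB2, SHC1, PTPN11 and ADAM17 passed the adjusted p-value under 4, 7, 7, 10 and 3 of 12 alternatives.

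Among 8 inhibitors, SOCS3 was the 1 gene that passed (12.5% higher, against 14.3% of all genes). SOCS1 had 80, 53 and 43 counts in A431CT and 84, 94 and 136 counts in Dsg2KO replicates 1, 2 and 3. Its log2 fold change was 0.55 (SE 0.24, edgeR adjusted p = 0.0972), and it passed both thresholds in 2 of 12 alternatives. It ranged from 0.34 without Dsg2KO replicate 3 (edgeR adjusted p = 0.381) to 0.86 without A431CT replicate 1 (edgeR adjusted p = 0.0184). SOCS2, CISH, PIAS1, PIAS3, PTPN1 and PTPN2 had adjusted p-values from 0.295 to 0.946 (edgeR). Of 23 STAT3 target genes 17 were tested, and 4 (23.5%) were higher, against 14.3% of all genes. These were SOCS3, BCL6, BCL3 and CCND1, which encodes cyclin D1. CCND1 rose from 1011 ± 60.1 to 1339 ± 41.7 CPM (SD, n = 3), a log2 fold change of 0.40 (SE 0.04, edgeR adjusted p = 3.15e-06). Of the targets 1 (5.88%) was lower, against 15.3% of all genes. This was HIF1A, at -0.13 on the log2 scale (edgeR adjusted p = 0.0414), in 6 of 12 alternatives. JUNB, MYC, MCL1, PIM1, CEBPB and CEBPD, further targets often read as STAT3 output, did not pass. Acute-phase genes were mixed in level, with SAA1 at 130 CPM in A431CT and 129 CPM in Dsg2KO cells, and SERPINA3, FGB, HAMP and CRP at 0 counts in every library.

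**Figure D3:**
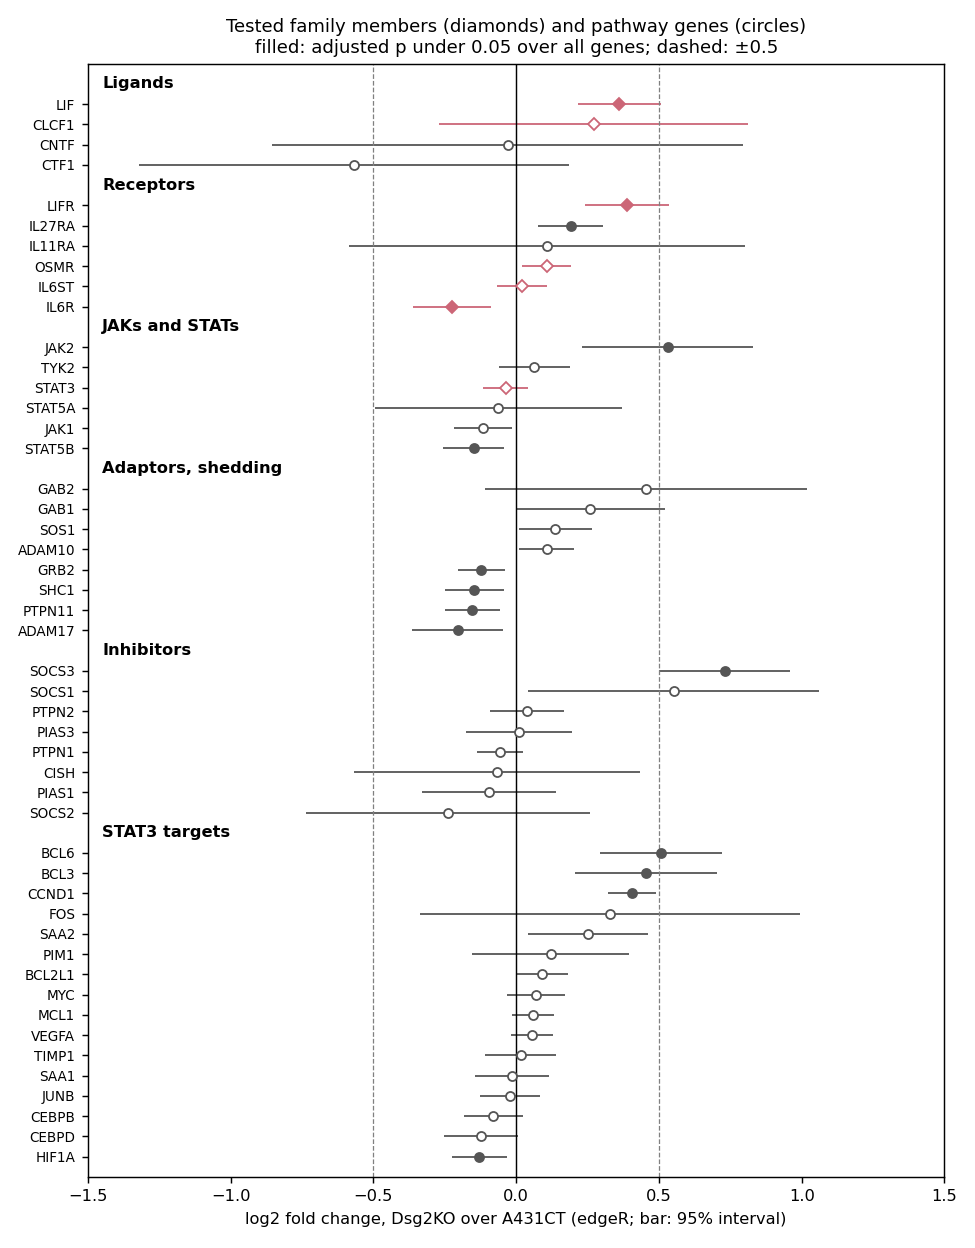
Log2 fold change (Dsg2KO over A431CT, with 95% intervals from edgeR) of each tested member (red diamonds, IL31RA left out) and of tested pathway genes (grey circles), filled where the adjusted p-value over all genes is under 0.05, with dashed lines at ±0.5 on the log2 scale. SOCS3 at 0.73, JAK2 at 0.53 and BCL6 at 0.51 are the filled points beyond the dashed line, and the members lie between -0.22 for IL6R and 0.39 for LIFR.

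Genes that oncostatin M and IL-31 are known to change in keratinocytes were mostly at low counts. Of 7 defence genes, such as S100A7 and DEFB4A, only S100A9 could be tested, with a log2 fold change of -0.0087 (edgeR adjusted p = 0.965). Of 9 barrier genes 4 were tested. By the adjusted p-value 0 were higher and 1 (25%) was lower, against 14.3% and 15.3% of all genes. The lower gene was KRT10, a keratin of differentiating epidermis. It was lower by -0.40 on the log2 scale (SE 0.06, edgeR adjusted p = 7.85e-05), from 112 ± 3.93 to 85.3 ± 6.53 CPM (SD, n = 3). FLG and IVL, which encode filaggrin and involucrin, had log2 fold changes of 0.32 and 0.36 with adjusted p-values of 0.344 and 0.11 (edgeR).

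IL31RA sits 12.2 kb from IL6ST, on the opposite strand and with no gene of the table between them, and LIFR sits 238 kb from OSMR on the same chromosome. The 10 nearest tested genes on each side, IL6ST included, had log2 fold changes from -0.26 to 0.41 with a median of 0.08, 15 higher and 5 lower, and 0 passed both thresholds. SLC38A9 on one side was at -0.14 (edgeR adjusted p = 0.545) and IL6ST on the other at 0.02. Of all genes tested, 49.1% were higher and 6.03% passed both thresholds. The 20 neighbours of LIFR had a median log2 fold change of 0.21, with 14 higher and 6 lower. Of these neighbours 3, UGT3A2, FYB1 and PTGER4, passed both thresholds as higher, against 2.99% of all genes. The value of LIFR, 0.39, was above that median and the value of OSMR, 0.11, below it, and the part of the region in the change of LIFR was not tested. The neighbours of IL6R had a median of -0.06, with 6 higher and 14 lower, those of LIF a median of -0.02, and those of STAT3 a median of -0.11, with 3 higher and 17 lower.

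**Figure D4:**
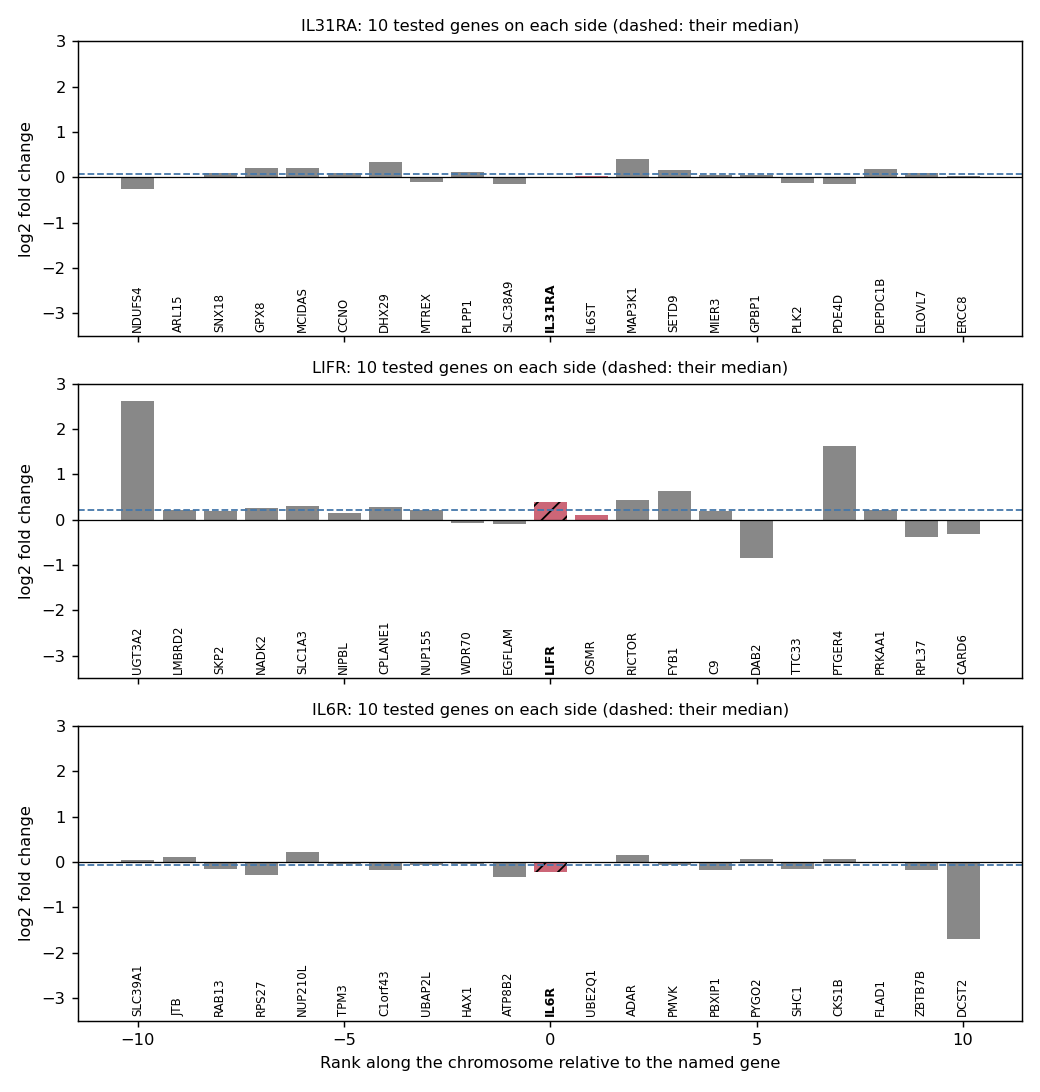
Log2 fold change (Dsg2KO over A431CT) of the 10 tested genes on each side of IL31RA, LIFR and IL6R in chromosome order, with family members in red, the named gene hatched at rank 0 (IL31RA not drawn) and the neighbours' median as a dashed line. Around IL31RA the bars stay between -0.26 and 0.41, whereas around LIFR most bars are above 0 with a median of 0.21.

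The pattern of IL31RA, no A431CT library above 3 counts and each Dsg2KO library above 3, was shown by 50 genes, and the opposite pattern by 28. By the mean log2 CPM in Dsg2KO cells, UGT3A2, AC132872.4, LRRC3 and FNTB were among those nearest to IL31RA, over 3 libraries. UGT3A2 (chromosome 5), a sugar transferase gene, had 2, 2 and 3 counts in A431CT and 16, 19 and 19 counts in Dsg2KO replicates. AC132872.4 (chromosome 17) had 0 counts in all 3 A431CT libraries against 21, 5 and 28. LRRC3 (chromosome 21) had 0, 1 and 1 counts against 12, 13 and 17, and FNTB (chromosome 14), a farnesyltransferase subunit gene, 0, 0 and 0 counts against 19, 13 and 9. The lowest IL31RA count, 15, is a cut that IL31RA meets by definition. Of the other genes with this pattern, UGT3A2 and TMEM129 reached it in every Dsg2KO library. TMEM129 (chromosome 4) had 0 counts in all 3 A431CT libraries against 182, 137 and 115. UGT3A2 is also the farthest of the neighbours of LIFR counted above.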

How the data were processed

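RNA-seq of A431CT and Dsg2KO cells (3 replicates each) was analysed from the deposited table. In CLC Genomics Workbench the authors trimmed and mapped paired-end reads (GRCh38) and counted reads for each gene, and the deposited values are raw counts. The gene annotation, the strand setting and the treatment of overlapping genes are not given in the sources used here. The members and gene lists were chosen with earlier results of these data known.

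Counts were tested with edgeR 4.0.16 in R 4.3.3 (TMM, filterByExpr with a minimum count of 10 and a minimum total of 15, quasi-likelihood F test, no covariates, Benjamini-Hochberg), which was also tested on simulated data. Calls required an adjusted p-value under 0.05 and, on the log2 scale, a change of 0.5 or more in size. Log2 CPM used a prior count of 2. The test of CLC Genomics Workbench was not used here. The biological coefficient of variation was 4.79%, and p-values measure the spread between these replicates. Replicates varied beyond counting error (chi-square per degree of freedom 2.64 to 4.12). The low counts of IL6 and IL11 were compared as summed counts with exact conditional intervals (scipy 1.17.1).

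Genes named are the members, DSG2, IL31, OSM, list genes past both thresholds, the nearest tested gene on each side of IL31RA, and the 5 genes most like IL31RA. Other list members, overlapping genes and neighbours were named after their values were seen. Exon lengths and positions are from GENCODE 44, which gave a length for 19491 symbols. LORICRIN was matched as LOR. Values of some genes of the lists are not reported here. Alternatives were other filters, RLE factors, total counts, DESeq2 1.42.0, a replicate block, no fold change minimum, and each replicate left out.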

Additional observations from a re-analysis of the deposited data

How the results depend on the processing

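Under the alternatives that kept the fold change minimum, from 659 genes (DESeq2, which gave no adjusted p-value for 499) to 916 genes (no low-count filter) passed, against 775. Without the minimum 3802 genes passed, 3 of them members and 13 pathway genes, which follows from the minimum itself. With 1 replicate left out the numbers were 686 to 795 genes, 0 members, and 2 to 4 pathway genes, and from 2 to 3 members had an adjusted p-value under 0.05. The replicate numbers do not pair the samples (correlations of residuals from -0.0027 to 0.0539), and 769 genes passed with a replicate block, of which 747 were among the 775. IL6ST reversed to -0.0083 without A431CT replicate 1 and to -0.0089 without Dsg2KO replicate 3, and with 1 replicate left out it reached 0.0588 at most. LIF and LIFR kept their direction and an adjusted p-value under 0.05 in all 12 alternatives, IL6R in 10. Depth limits IL6, IL11 and IL31RA most, with at most 24 counts in any library.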
